A study of Mus musculus with 6 samples.

Results

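Genes of the interferon response were examined in RNA from mouse lung tumour cells that carried a guide against Lkb1 (sgLkb1) or the control guide (sgNeo). The members were chosen by name among the protein-coding genes of the count table: genes whose symbols start with Ifi, Ifn, Isg, Oas, Gbp and a digit, Irgm or Iigp, interferon regulatory factors (IRFs), and further genes such as Stat2, Igtp, Usp18, Rsad2, Bst2, Zbp1, Xaf1, Ddx58 and Dhx58. This rule took 104 of 55487 genes and used no measured value. It also names Mx1 and Mx2, but the table lists both as polymorphic pseudogenes, so they are not members. All libraries came from KP tumours, a lung tumour model whose alleles the labels do not spell out. The sgLkb1 group (Lkb1 mutant) and the sgNeo group (Lkb1 wild type) had 3 libraries each. In both groups lungs were taken 11 weeks after tumour initiation and GFP-positive, CD45-negative cells were sorted, which removes cells that carry the leukocyte surface protein CD45. Strain, age, sex, the promoter behind GFP, and whether a library came from 1 animal or a pool are not stated in the labels. The p-values set the difference between the groups against the spread among libraries of a group, and that spread may therefore be technical.

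Interferons are secreted proteins that signal through paired receptor chains. Type I interferons act through Ifnar1 and Ifnar2, type III interferons through Ifnlr1 and a shared chain, and interferon gamma through Ifngr1 and Ifngr2. The receptors activate Janus kinases, which phosphorylate STAT proteins. Complexes that hold Stat2 and Irf9 bind the interferon-stimulated response element (ISRE), and STAT pairs bind the gamma-activated site (GAS). Target genes encode antiviral effectors, sensors of foreign nucleic acid and GTPases that attack intracellular pathogens. In human lung cancer, cells that have lost LKB1 are known for low expression of STING, a DNA-sensing adaptor upstream of interferon production.

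Of the 104 members, 72 passed the filter on low counts and were tested, 7 of them rose in sgLkb1 tumour cells and 8 fell. The members that rose were the membrane proteins Ifitm1, Ifitm2 and Ifitm3, the DNA-binding proteins Ifi204, Ifi205 and Ifi211, and the transcription factor Irf8. The members that fell were Stat2, the antiviral effectors Bst2, Ifit2, Ifit1bl2 and Rsad2, the GTPases Gbp6 and Gbp8, and Ifi27. The 15 members that passed are 20.8% of those tested, against a background of 15.7% of all 15978 tested genes (7.05% higher and 8.6% lower), so the number of calls is close to the background and is not in itself a result about the members. The median log2 fold change, given as sgLkb1 minus sgNeo throughout, was -0.47 for the tested members and 0.02 for all tested genes. It was negative in 50 tested members and positive in 22. In 12 members every sgLkb1 library lay above every sgNeo library, against 16.3% of all tested genes, and in 14 every sgLkb1 library lay below, against 20.3%. Both counts are close to these shares. A difference counted as passing had an adjusted p of at most 0.05 in edgeR's quasi-likelihood test, with Benjamini-Hochberg adjustment over all tested genes. With sgNeo replicate 2 left out 4 of 73 tested members passed, against 1129 of all 16750 tested genes. With sgNeo replicate 3 left out 6 of 73 did, against 1587 of 16847. With sgLkb1 replicate 2 left out 7 of 72 did, against 1529 of 16556. Leaving out sgNeo replicate 1 went the other way for the members, with 22 of 73, against 1325 of 16850.

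**Figure D1:**
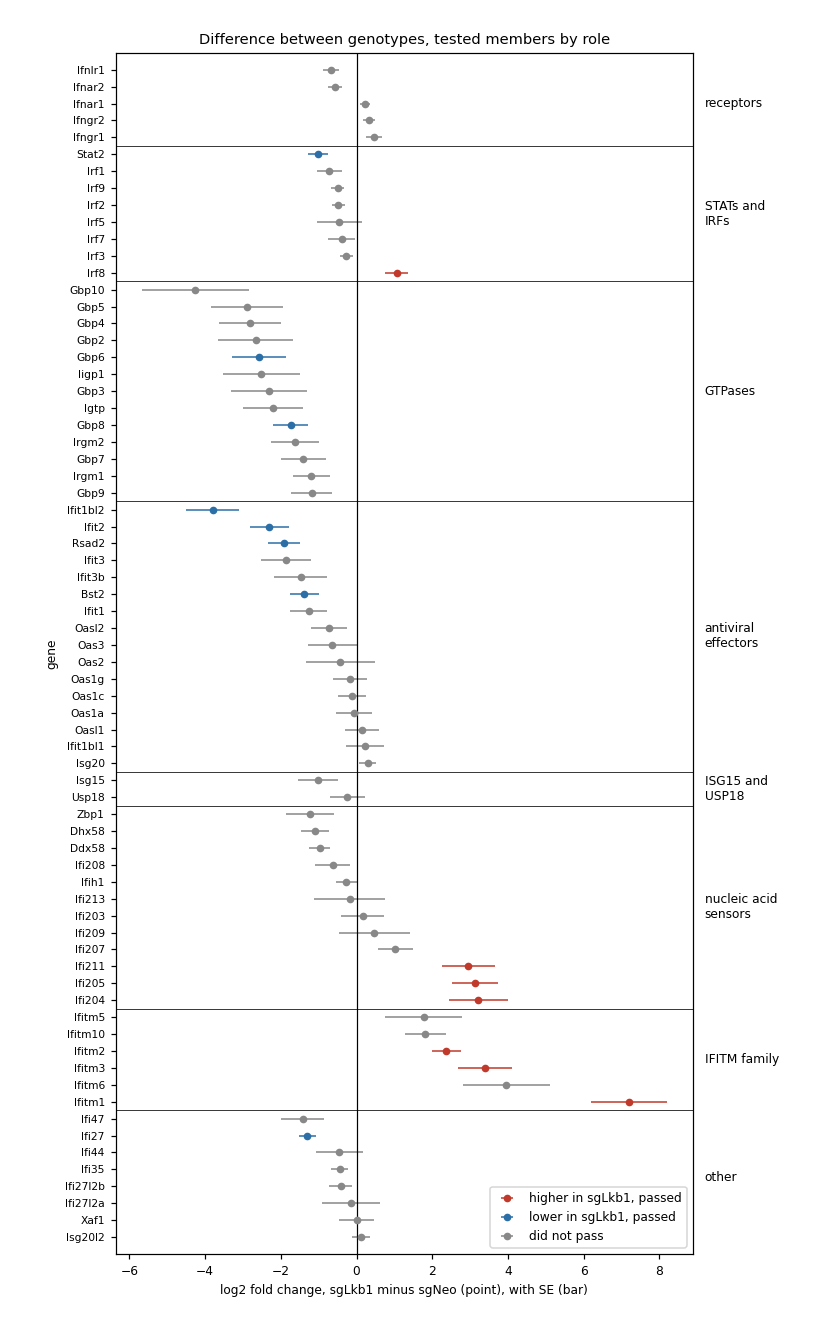
The log2 fold change (sgLkb1 minus sgNeo, horizontal axis) of tested members (a few are not shown), grouped by role, with bars of 1 SE and colour marking members that passed the test. The 6 IFITM genes lie to the right of 0 and the 13 GTPases to the left, while the nucleic acid sensors fall on both sides.

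The sequenced libraries held between 29613678 and 41729299 expected counts in sgLkb1 and between 26007503 and 28986526 in sgNeo. Stk11, which encodes Lkb1, was at 23.5, 25.6 and 25.3 CPM in sgLkb1 (counts scaled to library size, the unit of all levels here) and 68.3, 33.4 and 82.7 CPM in sgNeo, with no overlap and a log2 fold change of -1.31 (SE 0.30, with an edgeR adjusted p of 0.023). That call was lost in 5 of the 6 fits that left out a library, all but the fit without sgNeo replicate 2, and the log2 fold change lay between -1.61 and -1.04 in the 6 fits. Markers of epithelium were high in every library, and of 6 tested Epcam and Krt19 rose and Nkx2-1 fell. Epcam was at 935, 1344 and 939.6 CPM in sgLkb1 and 436, 509.7 and 556 CPM in sgNeo, and Nkx2-1, a lung lineage factor, averaged 129 ± 42.1 CPM in sgLkb1 and 274 ± 18.9 CPM in sgNeo. All 7 markers of alveolar type 2 cells fell in sgLkb1. Fibroblast markers summed to 178 to 1393 CPM in sgLkb1, highest in replicate 3, and to 37.0 to 116 CPM in sgNeo, and 4 of 7 rose. In bulk samples fewer cells of a type and less RNA per cell cannot be told apart.

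The promoters of the members carry the letters of the elements that interferon-activated factors bind, and the windows shown here are those of the genes on which the results turn. RefSeq promoter windows, of 250 bases before and 50 bases from each transcription start in build GRCm38.p6, were matched by symbol for 85 of the 104 members. The ISRE core, GAAA and GAAA with any 2 bases between them, was found on either strand in 45 of the 85 members (52.9%), against 3.99% of 27025 genes with a window. The GAS core TTCNNNGAA, searched the same way, was found in 31.8% of the members, against 9.55% of all genes. By role the ISRE core was in 8 of 8 GTPases with a window, in 10 of 11 nucleic acid sensors, in 11 of 17 antiviral effectors, in 2 of 7 IFITM genes and in 0 of 5 receptors. Among members with a window it was in 4 of 6 that rose, in 4 of 5 that fell and in 23 of 45 that did not pass. These differences were not tested. The sequences below cover 180 bases before and 30 bases from the start, 5′ to 3′ on the gene's strand, with matches in capitals.
Bst2, chr8:71537443-71537652, minus strand: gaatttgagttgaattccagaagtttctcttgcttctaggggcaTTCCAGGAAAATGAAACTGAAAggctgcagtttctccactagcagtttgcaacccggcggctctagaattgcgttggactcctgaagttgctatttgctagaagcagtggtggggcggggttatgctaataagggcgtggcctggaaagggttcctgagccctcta
Rsad2, chr12:26456423-26456632, minus strand: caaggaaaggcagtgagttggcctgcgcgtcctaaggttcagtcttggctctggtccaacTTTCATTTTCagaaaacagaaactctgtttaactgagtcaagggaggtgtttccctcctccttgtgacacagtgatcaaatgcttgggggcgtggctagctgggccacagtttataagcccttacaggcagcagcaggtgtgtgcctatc
Igtp, chr11:58199376-58199585, plus strand: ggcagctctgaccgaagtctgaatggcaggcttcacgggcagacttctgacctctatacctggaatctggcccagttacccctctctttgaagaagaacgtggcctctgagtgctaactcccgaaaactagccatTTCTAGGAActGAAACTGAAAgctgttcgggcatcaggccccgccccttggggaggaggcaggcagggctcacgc
Ifi211, chr1:173913017-173913226, minus strand: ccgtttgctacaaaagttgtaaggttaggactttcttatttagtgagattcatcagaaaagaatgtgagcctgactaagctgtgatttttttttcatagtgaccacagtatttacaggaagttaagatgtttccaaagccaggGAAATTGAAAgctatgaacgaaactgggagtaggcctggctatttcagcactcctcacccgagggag
Irf8, chr8:120736178-120736387, plus strand: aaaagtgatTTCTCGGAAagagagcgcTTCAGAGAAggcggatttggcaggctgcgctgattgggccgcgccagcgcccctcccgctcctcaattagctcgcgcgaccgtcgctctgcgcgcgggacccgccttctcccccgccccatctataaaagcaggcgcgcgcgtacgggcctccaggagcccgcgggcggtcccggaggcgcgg
Ifitm1, chr7:140967896-140968105, plus strand: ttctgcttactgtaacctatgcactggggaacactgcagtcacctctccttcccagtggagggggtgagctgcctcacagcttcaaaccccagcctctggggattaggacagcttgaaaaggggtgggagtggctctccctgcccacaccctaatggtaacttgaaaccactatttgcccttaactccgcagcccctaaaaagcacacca
Ifitm2, chr7:140955932-140956141, minus strand: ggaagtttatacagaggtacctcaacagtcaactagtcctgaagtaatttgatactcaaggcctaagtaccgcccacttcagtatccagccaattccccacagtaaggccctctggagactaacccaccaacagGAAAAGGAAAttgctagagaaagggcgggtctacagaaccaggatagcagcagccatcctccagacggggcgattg
Ifitm3, chr7:141010715-141010924, minus strand: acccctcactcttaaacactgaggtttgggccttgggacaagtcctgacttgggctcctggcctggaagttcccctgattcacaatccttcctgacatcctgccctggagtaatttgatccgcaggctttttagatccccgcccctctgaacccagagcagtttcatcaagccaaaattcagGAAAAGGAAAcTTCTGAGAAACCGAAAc

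In the Bst2 window a GAS core overlaps an ISRE core, which in turn overlaps a further ISRE core. In Igtp the GAS core ends 37 bases before the start and the ISRE core begins 34 bases before it. The Rsad2 match is on the opposite strand and reads TTTCATTTTC. Irf8 holds a pair of GAS cores and no ISRE core, and its other RefSeq window holds neither. The neighbouring IFITM genes differ: the Ifitm3 window holds a pair of ISRE cores just after the start with a GAS core that overlaps the second of them, the Ifitm2 window holds an ISRE core 46 bases before the start, and the Ifitm1 window holds neither core. These matches describe the letters in the windows only.

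Interferon ligands were at or near 0 in both groups. None of the 21 ligand genes passed the filter, and 18 of them had no count in any library, among them Ifnb1, all 13 genes named Ifna with a number, and the lambda interferons Ifnl2 and Ifnl3. Ifne, an epithelial type I interferon, had 8, 8 and 3 counts in sgLkb1 and 0 in each sgNeo library. Ifng, which encodes interferon gamma and is made by T and NK cells, had 0 counts in each sgLkb1 library and 2, 0 and 0 in sgNeo. A count of 0 in 1 library allows up to 3 counts, or 0.0734 to 0.0861 CPM in sgLkb1 and 0.119 to 0.121 CPM in sgNeo.

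All 5 receptor chains were expressed in both groups, and none passed the test. Ifngr1 was at 199, 273 and 161 CPM in sgLkb1 and 149, 168 and 145 CPM in sgNeo, with a log2 fold change of 0.46 (SE 0.21, with an edgeR adjusted p of 0.19). Ifnlr1, the ligand-binding chain for type III interferons, was at 10.1, 9.71 and 11.0 CPM in sgLkb1 and 18.5, 18.2 and 12.6 CPM in sgNeo, without overlap, with a log2 fold change of -0.68 (SE 0.22, with an edgeR adjusted p of 0.075). Ifngr2 averaged 119 ± 17.1 CPM in sgLkb1 and 94.9 ± 4.61 CPM in sgNeo (log2 fold change 0.32, edgeR adjusted p = 0.20). Chains of the type I receptor lay on opposite sides of 0. Ifnar1 averaged 54.0 ± 2.76 CPM in sgLkb1 and 46.2 ± 0.806 CPM in sgNeo (SD, n = 3 each), and Ifnar2 averaged 51.4 ± 10.6 CPM in sgLkb1 and 76.4 ± 10.2 CPM in sgNeo. Their log2 fold changes were 0.23 (SE 0.13) and -0.57 (SE 0.19), with edgeR adjusted p of 0.29 and 0.080. Per kilobase of exon, Ifngr1 had the highest level of the 5 receptor genes in both groups, at 74.2 CPM per kilobase in sgLkb1 and 54.1 in sgNeo, and Ifnlr1 the lowest, at 2.46 in sgLkb1 and 3.93 in sgNeo.

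Of 10 tested signal transducers and IRFs, Stat2 fell and Irf8 rose (20% called, against 15.7% of all tested genes). Stat2, which acts in a DNA-binding complex with Irf9, was at 11.1, 11.1 and 19.5 CPM in sgLkb1 and 22.4, 30.1 and 32.0 CPM in sgNeo. The groups did not overlap, and the log2 fold change was -1.02 (SE 0.27, with an edgeR adjusted p of 0.039). Irf9 was at 28.1, 27.7 and 28.6 CPM in sgLkb1 and 36.5, 36.2 and 47.0 CPM in sgNeo, also without overlap, but did not pass (log2 fold change -0.50, SE 0.16, with an edgeR adjusted p of 0.073). Irf1, an early target of interferon gamma, was at 69.2, 67.0 and 87.6 CPM in sgLkb1 and 67.6, 116 and 184 CPM in sgNeo. Its sgNeo libraries spread 2.72-fold, with replicate 1 inside the sgLkb1 range, and it did not pass (log2 fold change -0.72, SE 0.33, with an edgeR adjusted p of 0.18).

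Irf8, a factor of macrophage, dendritic and B cell lineages, was at 16.5, 13.6 and 20.4 CPM in sgLkb1 and 6.26, 6.56 and 11.4 CPM in sgNeo. Every sgLkb1 library lay above every sgNeo library, and the log2 fold change was 1.06 (SE 0.30, with an edgeR adjusted p of 0.047). Macrophage and dendritic markers summed to 98.5, 61.9 and 74.7 CPM in sgLkb1 and 40.4, 31.0 and 39.1 CPM in sgNeo, and 3 of 9 tested rose (Mrc1, C1qb and Flt3). None of the 10 markers in that list was at 0 in all libraries, though Siglech and Flt3 were at 0 in some. B and plasma cell markers went the other way, summing to 3.54 to 6.29 CPM in sgLkb1 and 13.6 to 20.6 CPM in sgNeo, with 2 of 4 tested lower. The part of these cells in the Irf8 difference was not tested. Irf4, a lymphocyte factor, had 25 counts in sgLkb1 replicate 1 and 0 in the other 5 libraries. Further IRFs did not pass. Irf2 was at 23.6 ± 4.03 CPM in sgLkb1 and 33.0 ± 2.87 CPM in sgNeo, with a log2 fold change of -0.48 (edgeR adjusted p = 0.11). Irf3, which acts downstream of nucleic acid sensors, was at 44.5 ± 8.26 CPM in sgLkb1 and 53.7 ± 5.54 CPM in sgNeo (edgeR adjusted p = 0.35). Irf7, the factor that amplifies type I interferon production, was at 19.3 ± 6.52 CPM in sgLkb1 and 25.3 ± 10.9 CPM in sgNeo (edgeR adjusted p = 0.50). Irf5, of macrophage activation, was low in both groups, at 2.08 ± 0.969 CPM in sgLkb1 and 2.86 ± 1.89 CPM in sgNeo (edgeR adjusted p = 0.65). Calls on Irf8 and Stat2 were fragile. Irf8 did not pass in any fit that left out a library except the fit without sgNeo replicate 3, and its log2 fold change ranged between 0.88 and 1.39. Stat2 passed only in the fit without sgLkb1 replicate 3 among those 6, with a range of -1.36 to -0.85.

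Of 16 tested antiviral effectors 4 fell (25%, against 8.6% of all tested genes) and none rose, and 13 had a negative log2 fold change. Bst2, or tetherin, which holds budding virus at the cell surface, was at 16.0, 14.9 and 27.1 CPM in sgLkb1 and 30.2, 41.3 and 79.5 CPM in sgNeo. Ifit2, an RNA-binding inhibitor of viral translation, was at 2.62, 1.34 and 2.44 CPM in sgLkb1 and 4.45, 11.2 and 15.9 CPM in sgNeo. Rsad2, or viperin, was at 1.86, 1.76 and 0.775 CPM in sgLkb1 and 4.21, 5.91 and 6.53 CPM in sgNeo. None of the 3 genes overlapped between the groups, and in each sgNeo replicate 3 was the highest library. The log2 fold changes were -1.38 for Bst2 (SE 0.38, with an edgeR adjusted p of 0.045), -2.30 for Ifit2 (SE 0.50, with an edgeR adjusted p of 0.019) and -1.92 for Rsad2 (SE 0.44, with an edgeR adjusted p of 0.022). All 3 calls were lost when sgNeo replicate 2 or 3 was left out. Those on Bst2 and Ifit2 were also lost with sgLkb1 replicate 2 left out, and that on Bst2 with sgLkb1 replicate 1 left out. Across these 6 leave-one-out fits the log2 fold change ranged between -1.71 and -0.89 for Bst2, -2.67 and -1.88 for Ifit2 and -2.13 and -1.63 for Rsad2.

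Ifit1bl2 had the largest fold of the members that fell. It was at 0.147, 0.157 and 0.0287 CPM in sgLkb1 and 1.97, 1.498 and 1.39 CPM in sgNeo, a log2 fold change of -3.80 (SE 0.70, with an edgeR adjusted p of 0.0098). The sgLkb1 levels are near the floor, since 3 counts come to 0.0734 to 0.0861 CPM there, so the size of the fold is uncertain. For this gene sgNeo replicate 1 was the highest library, unlike in the other effectors, and the call held in all 6 fits that left out a library. Its neighbour on chromosome 19, Ifit1bl1, did not share the difference, at 10.1, 26.2 and 17.0 CPM in sgLkb1 and 6.34, 14.2 and 24.9 CPM in sgNeo, and the groups overlapped (log2 fold change 0.23, SE 0.50, with an edgeR adjusted p of 0.80). Ifit1 averaged 3.03 ± 0.400 CPM in sgLkb1 and 7.31 ± 4.46 CPM in sgNeo, and Ifit3 averaged 6.18 ± 2.29 CPM in sgLkb1 and 22.5 ± 20.1 CPM in sgNeo. Neither of the 2 passed (edgeR adjusted p = 0.13 and 0.095), and 51.2% of the 50-base windows of Ifit3 occur in another gene, so reads of the copies may be split between them. None of the 7 tested OAS genes passed, a family in which some members make the second messenger that activates RNase L. For example, Oas1a was at 13.4, 9.42 and 19.1 CPM in sgLkb1 and 6.46, 12.1 and 25.1 CPM in sgNeo (log2 fold change -0.06, edgeR adjusted p = 0.95). Oasl2 was at 9.93, 10.6 and 21.7 CPM in sgLkb1 and 10.2, 21.7 and 37.8 CPM in sgNeo (log2 fold change -0.72, edgeR adjusted p = 0.35). The groups overlapped in both, and sgNeo replicate 3 was the highest library. The exonuclease Isg20 was at 54.8, 60.4 and 78.3 CPM in sgLkb1 and 42.8, 45.1 and 70.1 CPM in sgNeo, and the groups overlapped (log2 fold change 0.29, SE 0.23, with an edgeR adjusted p of 0.44).

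The IFITM family, small membrane proteins that block fusion of entering viruses, moved the other way. All 6 tested members had a positive log2 fold change. In 5 of them every sgLkb1 library lay above every sgNeo library, against 16.3% of all tested genes, and 3 rose, against 7.05%. Ifitm1 was at 34.4, 484 and 163 CPM in sgLkb1 and 2.01, 0.891 and 1.75 CPM in sgNeo. Ifitm3 was at 98.8, 994 and 502 CPM in sgLkb1 and 41.4, 46.6 and 64.4 CPM in sgNeo. Ifitm2 was at 279, 870.0 and 491 CPM in sgLkb1 and 117, 89.9 and 109.7 CPM in sgNeo. In all 3 genes the sgNeo libraries were close together and the sgLkb1 libraries far apart, with replicate 2 the highest and replicate 1 the lowest. The log2 fold changes were 7.19 for Ifitm1 (SE 1.00, with an edgeR adjusted p of 0.0032), 3.39 for Ifitm3 (SE 0.71, with an edgeR adjusted p of 0.016) and 2.37 for Ifitm2 (SE 0.38, with an edgeR adjusted p of 0.0058). Highest over lowest library came to 14.1-fold for Ifitm1, 10.1-fold for Ifitm3 and 3.11-fold for Ifitm2 in sgLkb1, against 2.25-fold, 1.56-fold and 1.30-fold in sgNeo.

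Replicate 2 was the highest of the sgLkb1 libraries, and of all libraries, in 6 of 6 tested IFITM genes, against 19.2% of all tested genes. Ifitm6 was at 0.612, 3.75 and 0.775 CPM in sgLkb1 and 0.241, 0 and 0.0797 CPM in sgNeo, and Ifitm10 at 1.27, 3.25 and 2.44 CPM in sgLkb1 and 0.441, 0.769 and 0.757 CPM in sgNeo. Both narrowly missed the threshold, with log2 fold changes of 3.95 (SE 1.15) and 1.82 (SE 0.53) and edgeR adjusted p of 0.053 and 0.055. Ifitm5 was the member of the family whose groups overlapped. Per kilobase of exon, Ifitm2 and Ifitm3 were the most abundant of these genes in sgLkb1, at 835 and 784 CPM per kilobase, against 161 and 74.9 in sgNeo, and Ifitm1 was at 208 CPM per kilobase in sgLkb1 and 1.42 in sgNeo. Calls on Ifitm1 and Ifitm2 held in all 6 fits that left out a library. The log2 fold change of Ifitm1 was lowest, at 6.03, with sgLkb1 replicate 2 left out, and in limma-voom its adjusted p was 0.053 (log2 fold change 6.55). The call on Ifitm3 was lost when any sgNeo library was left out, and its log2 fold change ranged between 2.61 and 3.88. Of the 50-base windows of Ifitm2, 48.5% occur in another gene, and the overlapping annotated gene Gm45717 shares the most of them. Mesothelial markers, whose sum was nearly all Msln, summed to 814, 1279 and 1049 CPM in sgLkb1 and 169, 189 and 427 CPM in sgNeo. Within sgLkb1 Msln, and so the sum, had the order of Ifitm1, Ifitm2 and Ifitm3, lowest in replicate 1 and highest in replicate 2. The rest of the list, Upk3b, Lrrn4 and Wt1, was highest in sgLkb1 replicate 3, at 16.5, 13.1 and 7.46 CPM. Of the 3 tested mesothelial markers 1, Msln, rose. Fibroblast markers summed to 178, 258 and 1393 CPM in sgLkb1 and 116, 44.5 and 37.0 CPM in sgNeo. The part of either cell type in the IFITM differences was not tested.

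**Figure D2:**
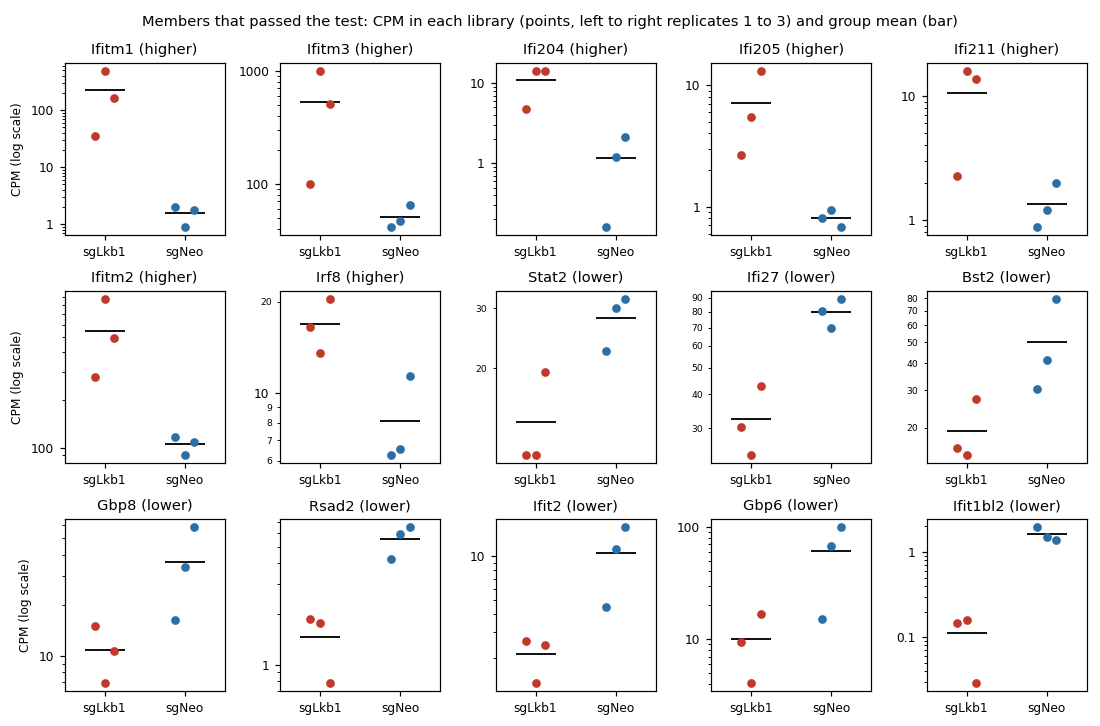
Level (CPM, log scale) of each member that passed the test, 1 panel a gene, with 1 point per library (sgLkb1 left, sgNeo right, replicates 1 to 3 from left to right) and a bar at the group mean. The 3 IFITM genes spread over sgLkb1 libraries, with replicate 2 at the top, while Bst2, Stat2, Rsad2, Ifit2, Gbp6 and Gbp8 have their highest value in sgNeo replicate 3.

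Of 12 tested nucleic acid sensors 3 rose (25%, against 7.05% of all tested genes) and none fell. All 3 were among the 8 tested HIN-200 genes of chromosome 1, of which 6 had a positive and 2 a negative log2 fold change. HIN-200 proteins bind DNA through a shared domain, and some of them take part in DNA sensing. Ifi204 was at 4.72, 14.01 and 14.2 CPM in sgLkb1 and 0.160, 1.21 and 2.15 CPM in sgNeo. Ifi205 was at 2.67, 5.43 and 13.1 CPM in sgLkb1 and 0.802, 0.931 and 0.677 CPM in sgNeo. Ifi211 was at 2.25, 15.8 and 13.6 CPM in sgLkb1 and 0.882, 1.21 and 1.99 CPM in sgNeo. All 3 genes were higher in every sgLkb1 library than in any sgNeo library, and sgLkb1 replicate 1 was the lowest of its group. Their log2 fold changes were 3.22 (SE 0.79), 3.13 (SE 0.61) and 2.95 (SE 0.70) in that order, with edgeR adjusted p of 0.029, 0.012 and 0.026. Of the 50-base windows of Ifi211, 72.8% occur in another gene, and Ifi205 shares the most of them. How reads were divided between these close copies is therefore uncertain.

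Ifi202b did not pass the filter because its counts came from few libraries, at 2, 200 and 88 in sgLkb1 and 0, 0 and 1 in sgNeo. With no filter it had an edgeR adjusted p of 1.6e-06, a value that cannot be set beside those of the main fit. Without the filter edgeR adjusted p were lower for other genes too. That of Stk11 was 1.49e-05, against 0.023 with the filter, and 35 members passed, against 15. The other 5 tested HIN-200 genes did not pass: in Ifi203, Ifi209 and Ifi213 the groups overlapped, Ifi207 lay above at 1.88 ± 0.245 CPM in sgLkb1 against 0.924 ± 0.270 CPM in sgNeo, and Ifi208 lay below at 0.871 ± 0.188 CPM in sgLkb1 against 1.35 ± 0.112 CPM in sgNeo. The calls on all 3 HIN-200 genes that rose were lost without sgNeo replicate 2. Those on Ifi204 and Ifi211 were also lost without sgLkb1 replicate 2 or 3, those on Ifi205 and Ifi211 without sgNeo replicate 3, and that on Ifi211 without sgNeo replicate 1. The log2 fold change ranged between 2.70 and 3.99 for Ifi204, 2.31 and 3.55 for Ifi205 and 2.58 and 3.43 for Ifi211 in these fits. HIN-200 genes are also expressed in macrophages, whose summed markers were higher in every sgLkb1 library than in any sgNeo library, as given beside Irf8. Within sgLkb1, the macrophage and dendritic sum was highest in replicate 1, at 98.5 CPM, where Ifi204, Ifi205 and Ifi211 were lowest. Adgre1, Cd68, Mrc1, C1qa and C1qb were also highest there. Csf1r, Itgax and the barely detected Siglech were highest in replicate 3, and Marco and Flt3 in replicate 2. The groups overlapped in Csf1r, Cd68, Marco, Itgax and Siglech. Endothelial markers summed to 97.8, 108 and 180 CPM in sgLkb1 and 85.5, 76.6 and 51.0 CPM in sgNeo. Within sgLkb1 this sum and the fibroblast sum, given beside the IFITM genes, were lowest in replicate 1 and highest in replicate 3. Ifi204 and Ifi205 had that order, though Ifi204 was nearly equal in replicates 2 and 3, and Ifi211 was highest in replicate 2. Not every marker followed the sums: Dcn, Lum, Pecam1, Kdr, Emcn and Tie1 were lowest in sgLkb1 replicate 2, and Cdh5 was highest there. The part of these cell types in the HIN-200 differences was not tested.

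None of the 3 tested RNA sensors passed. Ddx58, which encodes RIG-I, was at 29.7, 13.6 and 20.7 CPM in sgLkb1 and 35.2, 45.9 and 44.1 CPM in sgNeo, without overlap, with a log2 fold change of -0.97 (SE 0.28, with an edgeR adjusted p of 0.051). Dhx58, a regulator of RIG-I and MDA5, was at 3.74, 1.65 and 3.76 CPM in sgLkb1 and 6.06, 6.64 and 6.89 CPM in sgNeo (log2 fold change -1.10, SE 0.38, with an edgeR adjusted p of 0.090). Ifih1, which encodes MDA5, averaged 20.0 ± 7.94 CPM in sgLkb1 and 24.1 ± 2.81 CPM in sgNeo, and its groups overlapped (log2 fold change -0.27, edgeR adjusted p = 0.56).

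Interferon-induced GTPases showed the widest spread among sgNeo libraries of any role group with more than 2 tested members. The guanylate-binding proteins (Gbp) and the immunity-related GTPases (Igtp, Iigp1, Irgm1, Irgm2) coat and disrupt vacuoles that hold pathogens, and they are classic targets of interferon gamma. All 13 tested members had a negative log2 fold change, with a median of -2.32. Of them 2, Gbp6 and Gbp8, fell (15.4%, against 8.6% of all tested genes). Gbp2 was at 6.48, 11.2 and 25.02 CPM in sgLkb1 and 6.58, 67.4 and 198 CPM in sgNeo. Iigp1 was at 19.6, 19.7 and 73.0 CPM in sgLkb1 and 13.2, 253 and 377 CPM in sgNeo. Igtp was at 11.8, 8.53 and 30.8 CPM in sgLkb1 and 15.0, 62.4 and 160.3 CPM in sgNeo. In each of these 3 genes sgNeo replicate 1 lay within or below the range of the sgLkb1 libraries, and sgNeo replicates 2 and 3 lay above all of them. The differences did not pass, with log2 fold changes of -2.67 (SE 1.00), -2.52 (SE 1.01) and -2.22 (SE 0.79) and edgeR adjusted p of 0.11, 0.14 and 0.099.

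The same order recurred across the group. In 13 of 13 GTPases the libraries ranked sgNeo 3 above sgNeo 2 above sgNeo 1, against 3144 of 15978 tested genes. In 13 of 13, sgNeo 2 and 3 lay above every sgLkb1 library, against 3897 of all tested genes. In 12 of 13, all but Gbp8, sgNeo 1 lay below the highest sgLkb1 library, which was also the case in 10845 of all tested genes. The genes sit on several chromosomes, in Gbp clusters on chromosomes 3 and 5 and as immunity-related GTPases on chromosomes 11 and 18. The highest sgNeo library exceeded the lowest 30.1-fold for Gbp2 and 28.6-fold for Iigp1. Of the 13 genes, 11 had at least 1 CPM in all 6 libraries, and over these the median of this ratio was 7.52 in sgNeo and 2.74 in sgLkb1. It was 1.29 and 1.47 over the 12084 tested genes with at least that level. Gbp6 was at 9.44, 4.07 and 16.9 CPM in sgLkb1 and 15.2, 67.2 and 99.3 CPM in sgNeo, with a log2 fold change of -2.58 (SE 0.70, with an edgeR adjusted p of 0.042), and its groups overlapped. Gbp8 was at 15.0, 6.88 and 10.6 CPM in sgLkb1 and 16.2, 33.6 and 58.3 CPM in sgNeo, with a log2 fold change of -1.73 (SE 0.46, with an edgeR adjusted p of 0.039), and did not overlap. Near-identical copies make the levels of Gbp10, of which 84.1% of 50-base windows occur elsewhere, and of Gbp6, with 70.7%, uncertain, and exons of Gbp4, Gbp8 and Gbp9 overlap, as do those of Igtp and Irgm2.

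Which libraries were compared decided how many of the 13 GTPases passed. Without sgNeo replicate 1, 10 fell. With sgNeo replicate 2 or 3 or sgLkb1 replicate 2 left out, none did, and 1 did with sgLkb1 replicate 1 or 3 left out. For Iigp1 the log2 fold change ranged between -3.46 and -1.84 over these fits, and the edgeR adjusted p was 0.024 without sgNeo replicate 1. T and NK cell markers summed to 3.33, 3.62 and 1.81 CPM in sgLkb1 and to 5.05, 3.81 and 2.11 CPM in sgNeo. Of the 8 markers in that list 6 were at 0 in at least 1 library and 1, Trac, passed the filter, at 2.64, 3.41 and 1.61 CPM in sgLkb1 and 3.05, 2.55 and 1.16 CPM in sgNeo. Leukocyte markers summed to 102, 85.8 and 102 CPM in sgLkb1 and 96.2, 108 and 96.6 CPM in sgNeo, and endothelial markers to 97.8, 108 and 180 CPM in sgLkb1 and 85.5, 76.6 and 51.0 CPM in sgNeo. Every sgLkb1 library was above every sgNeo library in the endothelial sum, and 3 of 9 endothelial markers rose. The mesothelial sum, nearly all Msln and given beside the IFITM genes, was higher in every sgLkb1 library than in any sgNeo library. Within sgNeo it was highest in replicate 3. The part of any of these cell types, T and NK cells included, in the GTPase levels was not tested.

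**Figure D3:**
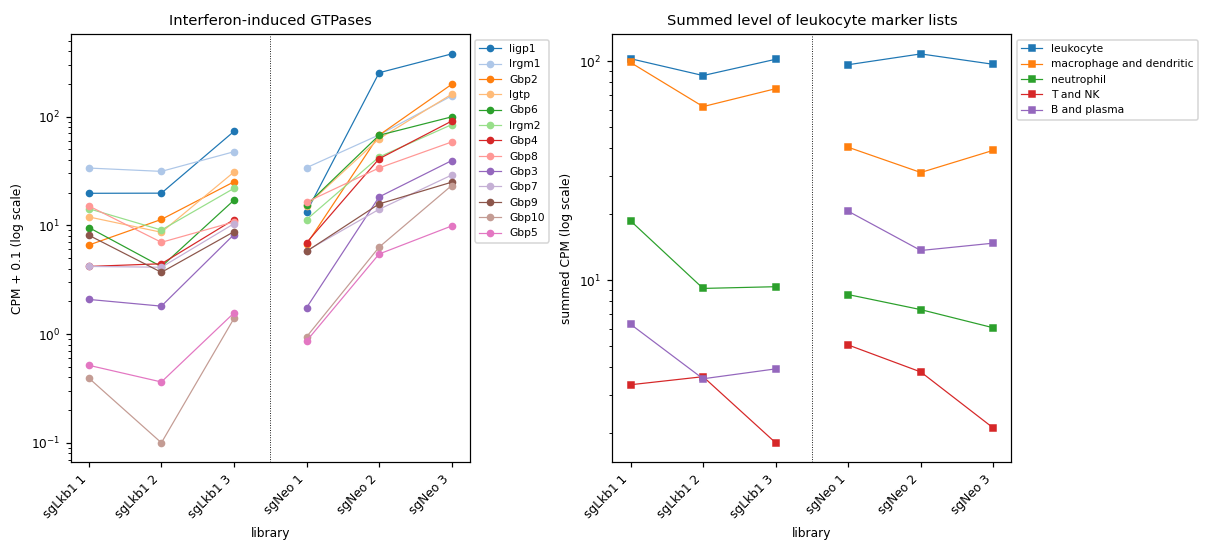
Left, level (CPM + 0.1, log scale) of the 13 tested GTPases in each library; right, summed CPM of marker lists of other cell types (log scale), with sgLkb1 libraries left of sgNeo libraries and lines that only join the values of 1 gene or list within a group. The GTPases are highest in sgNeo 3 in 13 of 13 genes, and T and NK markers sum to between 1.81 and 5.05 CPM over the 6 libraries.

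Of 8 tested other interferon-named members 1 fell (12.5%, against 8.6% of all tested genes) and none rose. Their median log2 fold change was -0.43. Ifi27, a strongly inducible target of type I interferon, fell: it was at 30.4, 24.0 and 43.0 CPM in sgLkb1 and 80.4, 70.0 and 89.1 CPM in sgNeo. The groups did not overlap, and highest over lowest library came to 1.79-fold in sgLkb1 and 1.27-fold in sgNeo. The log2 fold change was -1.30 (SE 0.23, with an edgeR adjusted p of 0.0083), a call that held in all 6 fits that left out a library. Ifi47, a further inducible GTPase, followed the order of the GTPases in sgNeo, at 13.3, 8.004 and 26.2 CPM in sgLkb1 and 17.1, 39.4 and 71.2 CPM in sgNeo (log2 fold change -1.43, SE 0.56, with an edgeR adjusted p of 0.13). Ifi35 was at 24.9 ± 7.84 CPM in sgLkb1 and 34.0 ± 3.18 CPM in sgNeo and did not pass (edgeR adjusted p = 0.23). Isg15, the ubiquitin-like modifier, was at 1.96, 1.97 and 4.91 CPM in sgLkb1 and 3.41, 4.86 and 9.60 CPM in sgNeo, and its protease Usp18 at 4.60, 11.9 and 13.7 CPM in sgLkb1 and 8.78, 8.62 and 18.4 CPM in sgNeo. In both genes the groups overlapped, and neither passed (log2 fold change -1.02 and -0.24, edgeR adjusted p = 0.24 and 0.76).

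Across the libraries as a whole, members were highest in sgNeo replicate 3 more often than in any other. That library held the highest value in 41 of 72 tested members (56.9%), against 17.9% of all tested genes, and sgLkb1 replicate 2 held the lowest in 32 (44.4%), against 16.1%. The median deviation of members from their mean over the 6 libraries, on the log2 scale, was -0.43, -0.46 and 0.12 in sgLkb1 and -0.43, 0.31 and 0.79 in sgNeo. Thus the median member in sgNeo replicate 1 lay close to that in sgLkb1 replicates 1 and 2, and sgLkb1 replicate 3 lay between these and sgNeo replicate 2.

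**Figure D4:**
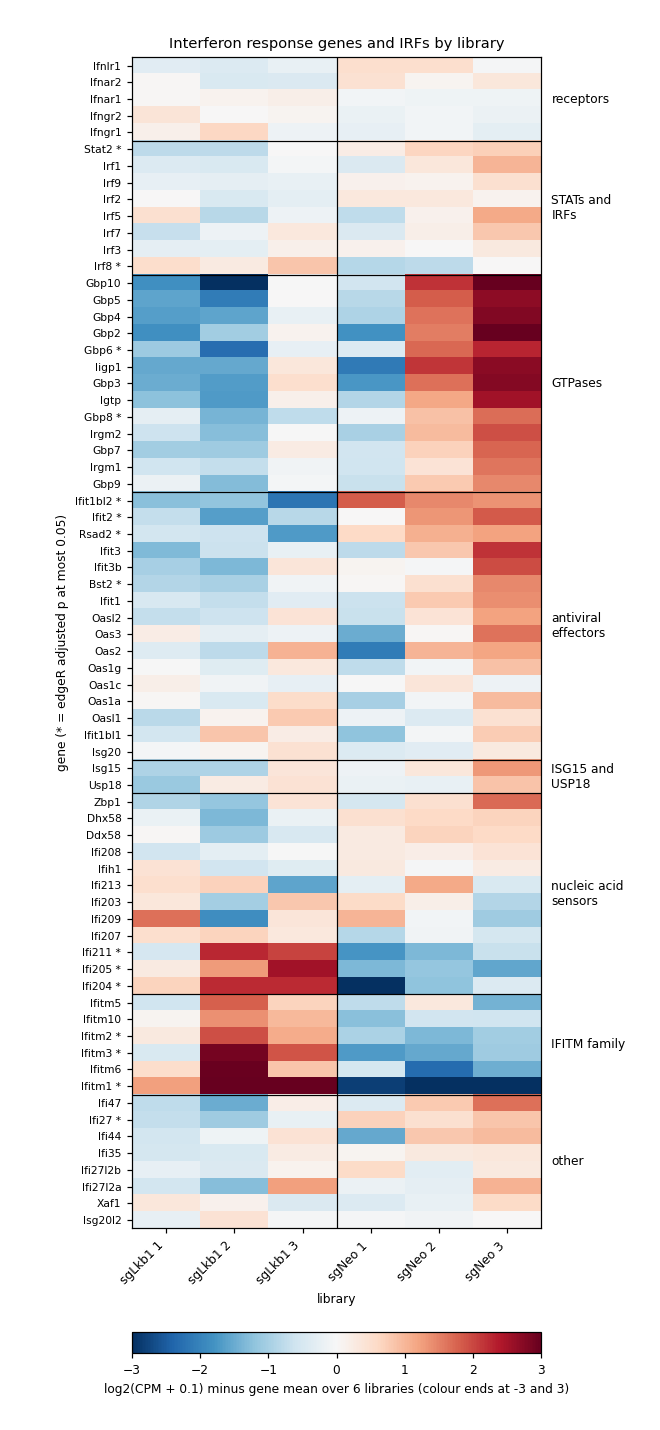
Tested members (rows, by role, a few not shown) in each library (columns, sgLkb1 left of sgNeo), coloured by log2 CPM minus the gene's mean over the 6 libraries. GTPases and many effectors are above their mean in sgNeo 2 and 3 and near or below it in sgNeo 1, and IFITM genes are above it in sgLkb1 2 and 3.

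Genes of the same pathway that the name rule does not take were read from the same fit. Of 63 tested, 1 rose and 7 fell (12.7% called, against 15.7% of all tested genes), with a median log2 fold change of -0.39, and sgNeo replicate 3 was highest in 36 (57.1%). Among receptor kinases and their inhibitors, Jak1, Jak2 and Tyk2 did not pass, with log2 fold changes of 0.37, 0.20 and -0.32 and edgeR adjusted p of 0.14, 0.52 and 0.37. The feedback inhibitors Socs1 and Socs3 did not pass either (log2 fold change -1.16 and 0.06, edgeR adjusted p = 0.23 and 0.84), while Cish, a feedback inhibitor of cytokine receptors, fell to 19.4 ± 1.82 CPM in sgLkb1, against 33.9 ± 4.09 CPM in sgNeo (log2 fold change -0.81, SE 0.17, with an edgeR adjusted p of 0.016). Upstream of interferon, Sting1 was at 29.0, 40.9 and 46.1 CPM in sgLkb1 and 38.8, 49.5 and 58.0 CPM in sgNeo. Its groups overlapped and it did not pass (log2 fold change -0.34, SE 0.22, with an edgeR adjusted p of 0.35). Cgas, the DNA sensor that signals to Sting1, was low in both groups, at 0.614 ± 0.330 CPM in sgLkb1 and 0.734 ± 0.678 CPM in sgNeo (edgeR adjusted p = 0.88). The gene that rose was Ikbke, a kinase that phosphorylates Irf3, at 18.0, 28.2 and 23.8 CPM in sgLkb1 and 8.62, 11.3 and 14.9 CPM in sgNeo, without overlap (log2 fold change 1.01, SE 0.26, with an edgeR adjusted p of 0.036).

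Of 40 tested other interferon-induced genes, 6 fell (15%, against 8.6% of all tested genes) and none rose. Sp110, a nuclear body protein, was at 3.33, 2.81 and 5.97 CPM in sgLkb1 and 12.7, 16.2 and 14.8 CPM in sgNeo, and its relative Sp100 at 5.38, 4.41 and 9.07 CPM in sgLkb1 and 11.6, 17.9 and 17.4 CPM in sgNeo. Neither overlapped, and the log2 fold changes were -1.85 (SE 0.33, with an edgeR adjusted p of 0.0087) and -1.32 (SE 0.33, with an edgeR adjusted p of 0.031). Tap1, a peptide transporter for class I antigen presentation, was at 11.0, 14.3 and 33.2 CPM in sgLkb1 and 37.4, 82.7 and 145 CPM in sgNeo, and the immunoproteasome subunit Psmb9 at 8.59, 6.06 and 19.1 CPM in sgLkb1 and 24.6, 41.8 and 76.1 CPM in sgNeo. These groups did not overlap either, sgNeo replicate 1 included, although sgNeo replicate 3 was again the highest library (log2 fold change -2.18 and -2.08, edgeR adjusted p = 0.033 and 0.030). Parp12, a mono-ADP-ribosyltransferase, averaged 24.6 ± 6.07 CPM in sgLkb1 and 50.3 ± 8.63 CPM in sgNeo, and Cmpk2, a mitochondrial nucleotide kinase encoded next to Rsad2, averaged 4.22 ± 0.365 CPM in sgLkb1 and 10.4 ± 3.59 CPM in sgNeo (log2 fold change -1.03 and -1.29, edgeR adjusted p = 0.017 and 0.033). Among these 8 pathway genes the call on Sp110 held in all 6 fits that left out a library. The other 7 were each lost in 3 to 5 of them. Pathway genes that passed numbered 1 without sgLkb1 replicate 2 and 2 without sgNeo replicate 2 or 3. Over all tested genes 1529 passed without sgLkb1 replicate 2, 1129 without sgNeo replicate 2 and 1587 without sgNeo replicate 3. Over the 6 fits the log2 fold change ranged between -2.82 and -1.63 for Tap1 and between 0.83 and 1.22 for Ikbke.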

How the data were processed

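Bulk RNA-seq counts of 6 libraries were analysed. The authors deposited an expected count per gene, made with STAR alignment and RSEM as far as their processing notes list these tools. The same notes list FastQC, DESeq2 and build GRCm38, without versions. Per the labels, libraries were made with Nextera XT. No annotation release or strand setting is recorded in the sources used here, so overlapping antisense genes cannot be told apart.

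Expected counts were rounded, filtered with filterByExpr (15978 genes kept) and normalised by TMM, with edgeR 4.0.16 under R 4.3.3. Genotypes were compared with edgeR's two-sided quasi-likelihood test, genotype as the only term. SE is the absolute log2 fold change over the square root of F. CPM use TMM-scaled totals. Positions, exon lengths and shared 50-base windows came from GENCODE M21 (GRCm38), which holds 55141 of the 55487 gene IDs and all 104 members. Motif searches used RefSeq promoters. Each statement about a fit that left out a library refits all genes.

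The members and lists were chosen with earlier results of these data known. Named were Stk11, all members that passed, the receptors, STATs and IRFs, Isg15, Usp18 and Ifitm1 to Ifitm3, the 3 tested members of each role with the highest mean CPM, the pathway genes that passed (at most 10) and Jak1, Jak2, Tyk2, Socs1, Socs3, Sting1 and Cgas; other genes were named after their values were seen. A few members and their results are counted but not reported here. In counts simulated from these libraries (15978 genes), the test recovered 2%, 28%, 92% and 100% of 50 genes each changed 1.5-, 2-, 4- and 8-fold, with 19 false calls. The changed genes were drawn only from those above a minimum mean CPM, so the shares do not cover members at low levels. Each gene was drawn independently, without spread shared between the genes of a library. The alternatives tried were other scalings (RLE, upper quartile), no filter or a CPM minimum of 1 in 3 libraries, other tools (DESeq2 1.42.0, limma-voom in limma 3.58.1), a replicate block, and each library left out. Replicates of a group differed beyond sampling noise.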

Additional observations from a re-analysis of the deposited data

How the results depend on the processing

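Of the members, 15 passed in edgeR, against 35 with no filter on low counts, 24 in DESeq2 and 9 in limma-voom, and between 4 and 22 with a library left out. Members higher numbered 7, against 3 in limma-voom and 2 to 9 with a library left out; members lower numbered 8, against 26 with no filter, 15 in DESeq2 and 2 to 18 with a library left out. Of the pathway genes outside the name rule 8 passed, against 17 with no filter, 15 in DESeq2 and 1 to 10 with a library left out; 1 was higher, against 2 in DESeq2 and 0 to 2, and 7 were lower, against 16 with no filter, 13 in DESeq2 and 1 to 10. Over all genes, 2501 passed, against 1129 to 2780 with a library left out; 1127 were higher, against 1917 with no filter, 1819 in DESeq2 and 447 to 1368, and 1374 were lower, against 682 to 1412. The log2 fold change of the Stk11 level ranged between -1.61 and -1.04 with a library left out. All 13 tested GTPases passed with no filter, 5 in DESeq2 and 0 in limma-voom. The calls on Ifi27, Ifit1bl2, Ifitm2 and Sp110 held in all 13 alternatives, and limma-voom ended those on Ifitm1, Bst2, Gbp6, Gbp8, Ifi204, Ifi205 and Ifi211. RLE scaling ended the call on Bst2, upper-quartile scaling that on Stat2, and the replicate block those on Gbp8 and Cmpk2. Among genes that did not pass, the log2 fold change with a library left out spanned 0 for Irf5 (-0.85 to 0.19), Usp18 (-0.55 to 0.20), Socs3 (-0.037 to 0.14) and Cgas (-0.79 to 0.66). That of Cgas was 0.24 in limma-voom and 0.042 with the replicate block.

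Whether the replicate numbers pair the samples could not be settled with 3 libraries per group. The correlations of deviations were 0.13, -0.02 and 0.11 between same-numbered libraries. Between libraries with different numbers they ran from -0.17 to 0.09. With a replicate block 24 members passed, 17 of them lower, and 13 pathway genes, 12 of them lower, and 6 GTPases fell. Over all 15978 tested genes 2880 passed with the block, 1544 of them lower.

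The simulated data limit what these depths and 3 libraries per group can show, since few changes of 2-fold or less were recovered. The cause of each change of call was not tested.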
